A study of Mus musculus with 12 samples.

Results

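Nuclear miRNAs were compared between C166 cells held for 24 h at 1% oxygen and cells kept in normoxia, written here as 0 h. C166 is an endothelial cell line from mouse yolk sac, a single immortal line, so its 2 biological replicates per group stand for this line only and p-values measure the spread between these cultures. Cells of both groups were grown in DMEM with 10% FBS, lysed and split into a nuclear pellet and a cytoplasmic supernatant, and small RNA from each fraction was sequenced (sRNA-seq). The members are the 350 miRNAs in the table, which is every miRNA it holds, measured in 4 of the 12 libraries for this comparison. The 2 nuclear libraries taken after 2 h of hypoxia helped to estimate the spread, and the cytoplasmic libraries served for comparison. No filter beyond that of the authors was applied, and all 350 miRNAs had at least 10 reads in each nuclear library.

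A miRNA is a short RNA cut from a hairpin precursor, in the nucleus by Drosha and in the cytoplasm by Dicer. The duplex that remains has a 5p and a 3p arm, 1 of which is usually kept by an Argonaute protein, and the seed near the 5′ end of that arm pairs with target RNAs. Mature miRNAs act mainly in the cytoplasm, but Argonaute proteins and mature miRNAs are also found in the nucleus. Low oxygen stabilizes the transcription factor HIF, and the miRNA gene best known as its target is Mir210.

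The comparison turned on a small set of mature miRNAs, shown here 5′ to 3′ from RefSeq (GRCm38.p6) with the seed, bases 2 to 8, in capitals. A sequence was found for 301 of the 350 miRNAs, among them 19 of the miRNAs called higher and 39 of those called lower. First come the largest rise and the hairpin whose arms moved in opposite directions, as both arms of miR-31 are read from the same precursor.
miR-210-3p: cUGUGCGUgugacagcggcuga
miR-31-5p: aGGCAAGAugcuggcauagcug
miR-31-3p: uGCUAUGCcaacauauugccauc
The second set shares the let-7 seed, and is shown because members with the same seed had unequal changes.
let-7a-5p: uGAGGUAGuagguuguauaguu
let-7f-5p: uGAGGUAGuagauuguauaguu
let-7c-5p: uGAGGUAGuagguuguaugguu
let-7d-5p: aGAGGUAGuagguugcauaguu
let-7i-5p: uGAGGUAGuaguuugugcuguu
The third set has a seed shared by a miRNA that fell and one that rose, with the other arm of the first.
miR-195a-5p: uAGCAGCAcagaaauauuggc
miR-322-5p: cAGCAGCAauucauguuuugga
miR-195a-3p: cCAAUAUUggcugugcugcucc
The last sets are 2 miRNAs that differ by a base near the 3′ end and 3 miRNAs with the seed of the miR-17 family.
miR-103-3p: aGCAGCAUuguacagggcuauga
miR-107-3p: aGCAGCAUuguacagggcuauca
miR-17-5p: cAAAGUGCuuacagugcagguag
miR-20a-5p: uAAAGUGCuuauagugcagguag
miR-106a-5p: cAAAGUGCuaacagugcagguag

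After 24 h of hypoxia 73 of the 350 nuclear miRNAs were called, 27 higher and 46 lower. A call needed a Benjamini-Hochberg adjusted p under 0.01 from limma, fitted on log2(normalized count + 1), and a change of at least 2-fold. This is 20.9% of all miRNAs, 7.71% for the rises and 13.1% for the falls. These shares are the background for every count of a list from this fit. For a list count under another scaling, the background is the number of all 350 miRNAs called under that scaling. It was 83 higher and 19 lower without miR-21a-5p, and 12 higher and 56 lower with miR-186-5p. The 24 h libraries lay on one side of the 0 h libraries for each called miRNA, as they did for 267 of all 350 (76.3%). The median change over all miRNAs was -0.02 on the log2 scale. The falls were the more abundant group, with a median of the mean normalized counts of 1188. It was 220 for the rises, near the 237 of the miRNAs not called. The miRNAs called lower made up 16.5% and 19.8% of the nuclear counts at 0 h but 7.13% and 7.56% at 24 h, whereas those called higher took 0.163% and 0.142% at 0 h and 0.562% and 0.520% at 24 h. Normalized counts are shares of equal RNA input, so fewer molecules per nucleus and a smaller share among other RNAs cannot be told apart.

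The count depended on the libraries and the split on the scaling. Without the second 0 h library 43 miRNAs were called, and without the first or the second 24 h library 18 and 25 were called, in fits that assume that the lone library varies like those of the other groups. When total counts leaving out miR-21a-5p set the scale, 83 miRNAs were called higher and 19 lower, and the median of all miRNAs moved to 0.43. Scaled to miR-186-5p, the reference miRNA of the RT-qPCR, 12 were called higher and 56 lower around a median of -0.19. These shifts apply to each change given here. The share of miR-21a-5p in the nuclear counts, 45.1% and 37.4% at 0 h, stood at 57.0% and 57.2% at 24 h.

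**Figure D1:**
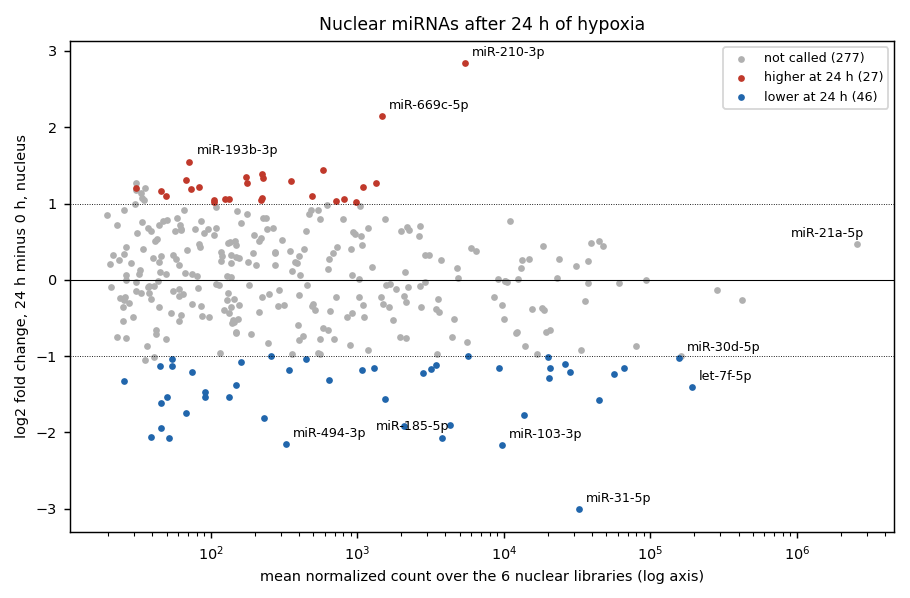
Each point is 1 of 350 miRNAs, with its mean normalized count over the 6 nuclear libraries on a log axis and its log2 fold change from 0 h to 24 h in the nucleus. Called rises (27, red) have a median of 220, near the 237 of the miRNAs not called (grey). Called falls (46, blue) reach much higher counts than the rises, up to let-7f-5p with a mean of 192180, and the dotted lines mark the 2-fold limits.

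miR-210-3p, the hypoxia miRNA that represses mitochondrial iron-sulfur cluster assembly, rose most. Its nuclear normalized counts were 1684 and 1758 at 0 h, 2448 and 1906 at 2 h, and 12744 and 11948 at 24 h. Both 24 h libraries stood far above the other 4, which lay close together. The rise was 7.17-fold (log2 2.84, SE 0.17, adjusted p = 1.1e-08, limma). Mir210 lies at chr7:141221384-141221493 on the minus strand (GRCm38), and GENCODE vM21 places no other gene on that strand there. The call held under all 19 alternative fits, with log2 changes from 2.68 to 3.30.

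The next rise was miR-669c-5p, with 962 and 431 normalized counts at 0 h and 2700 and 3034 at 24 h. The 0 h libraries differed from each other by more than 2-fold, yet both stayed below the 24 h libraries (log2 2.15, SE 0.28, adjusted p = 3.5e-05). This miRNA belongs to a rodent cluster of repeated hairpins in an intron of Sfmbt2, a Polycomb group gene. Of the 17 measured miRNAs of the cluster, 7 were called higher and 1, miR-466d-3p, lower, with a median change of 1.09 against -0.02 over all miRNAs. The members are near-identical copies, so reads may have been shared between them. miR-669o-5p went from 178 and 113 to 413 and 339 normalized counts, and miR-467b-5p from 101 and 89.7 to 264 and 226. The called fall, of miR-466d-3p, was from 63.4 and 73.5 to 34.7 and 31.1 normalized counts. The other negative change in the cluster was that of miR-669a-3p (log2 -1.03 by limma-voom), which was not called. Summed over the cluster, the libraries held 2739 and 1950 normalized counts at 0 h, 2788 and 3020 at 2 h, and 6224 and 6238 at 24 h. With the scaling that leaves out miR-21a-5p the called rises were 13, against 83 of all 350 miRNAs. Scaled to miR-186-5p they were 6, against 12 of all 350.

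Smaller rises were spread over several loci. miR-193b-3p, which targets cell cycle and estrogen receptor transcripts in human cells, had 38.6 and 32.4 normalized counts at 0 h, 74.2 and 71.7 at 2 h, and 110 and 101 at 24 h (log2 1.55, SE 0.25, adjusted p = 0.00018). Its 2 h libraries fell between the other groups without overlap. miR-450b-5p, from a cluster on the X chromosome that runs from Mir322 to Mir450b, rose from 358 and 321 to 974 and 864 (log2 1.43, SE 0.19, adjusted p = 3.7e-05). Within the same cluster miR-322-5p, a miR-15 family member that restrains cell cycle genes, rose from 533 and 480 to 1072 and 1003, while miR-542-3p fell from 5628 and 8083 to 1835 and 1764. Of 10 measured miRNAs of the cluster 2 were called higher and 1 lower, against 7.71% and 13.1% of all miRNAs. The median, 0.11, turned to -0.05 when scaled to miR-186-5p. miR-370-3p, from the imprinted Dlk1-Dio3 region, had 211 and 246 normalized counts at 0 h and 506 and 621 at 24 h (log2 1.30, SE 0.20, adjusted p = 0.00013). miR-199b-5p, which targets the calcineurin regulator Dyrk1a in heart, rose from 890 and 710 to 2051 and 1792 (log2 1.27, SE 0.22, adjusted p = 0.0003).

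**Figure D2:**
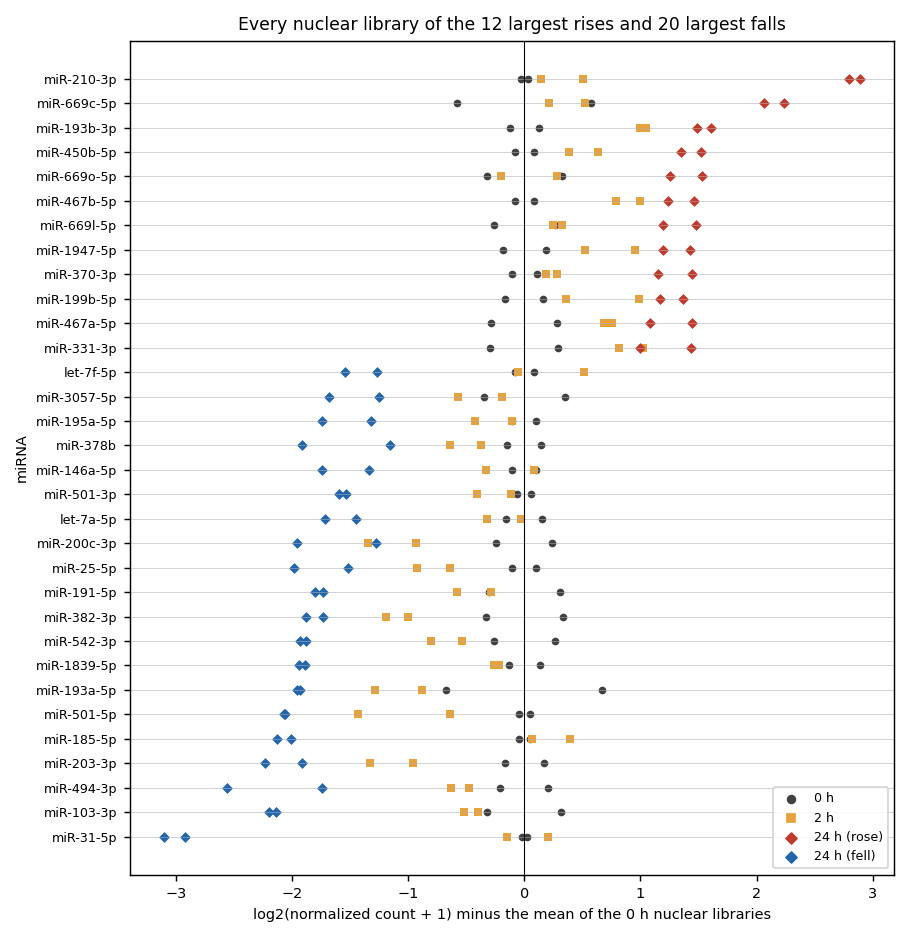
Each row is 1 miRNA and each symbol 1 nuclear library, as log2(normalized count + 1) minus the mean of the 0 h libraries. For the 12 largest called rises and 20 largest called falls, the 24 h libraries (diamonds) do not overlap those at 0 h (circles), and libraries at 2 h (squares) mostly lie between these or near 0 h.

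miR-31-5p, which lowers the hypoxia regulator FIH-1 in human epithelial cells, fell most. Its nuclear normalized counts were 46175 and 44767 at 0 h, 52394 and 40924 at 2 h, and 6012 and 5307 at 24 h. Libraries at 2 h lay on either side of those at 0 h, and the 24 h libraries lay far below all others. It was 8.05-fold (log2 -3.01, SE 0.16, adjusted p = 2.8e-09), and the call held under all 19 alternatives. Mir31 lies at chr4:88910557-88910662 on the minus strand, in an exon of the lincRNA gene AL805899.1.

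The next largest falls included several abundant miRNAs. miR-103-3p, made from introns of the pantothenate kinase genes Pank2 and Pank3 and known to target Dicer, had 11759 and 18298 normalized counts at 0 h, 11144 and 10229 at 2 h, and 3329 and 3188 at 24 h (log2 -2.17, SE 0.19, adjusted p = 9.9e-07). miR-107-3p, its near twin from an intron of Pank1, went from 466 and 584 to 328 and 299 (log2 -0.73, SE 0.19, adjusted p = 0.0058), below the 2-fold limit. As the sequences above show, the seeds are the same and reads of one could be assigned to the other. miR-185-5p went from 4869 and 4560 to 1076 and 1169 normalized counts (log2 -2.07, SE 0.17, adjusted p = 5.9e-07). miR-1839-5p, which overlaps a small Cajal body RNA gene, went from 2691 and 3234 to 767 and 794 (log2 -1.92, SE 0.17, adjusted p = 1e-06). For both, the libraries of a group agreed closely. miR-191-5p, an abundant miRNA of many tissues, fell from 16224 and 24838 to 5749 and 6039 (log2 -1.77, SE 0.19, adjusted p = 7.4e-06).

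Rarer miRNAs fell as well. miR-494-3p of the Dlk1-Dio3 region had 441 and 587 normalized counts at 0 h and 151 and 85.6 at 24 h (log2 -2.15, SE 0.25, adjusted p = 1.6e-05), and from the same region miR-382-3p went from 310 and 493 to 105 and 117. Of the 38 measured miRNAs of the region 3 were called higher and 3 lower, against 7.71% and 13.1% of all miRNAs. The median was 0.43. This split rested on the scaling. Without miR-21a-5p 15 were called higher and 2 lower, against 83 and 19 of all 350 miRNAs. With miR-186-5p 1 was called higher and 3 lower, against 12 and 56 of all 350. Both arms of miR-501, in an intron of the chloride channel gene Clcn5, fell: miR-501-5p from 66.2 and 70.6 to 15.7 and 15.6 and miR-501-3p from 2040 and 2223 to 704 and 735. These were the called members among 7 measured miRNAs of that X-linked cluster, whose median was -0.22 and turned to 0.24 when scaled without miR-21a-5p. miR-146a-5p, a brake on NF-kB signaling, fell from 163 and 188 to 51.5 and 68.5 (log2 -1.54, SE 0.24, adjusted p = 0.00015). Among the 20 largest falls 10 kept their call under every alternative they entered, namely miR-31-5p, miR-103-3p, miR-185-5p, miR-1839-5p, miR-191-5p, miR-494-3p, miR-542-3p, miR-501-3p, miR-203-3p and let-7a-5p. miR-203-3p entered 18 of the 19, as its counts were too low for the fit with a mean of at least 100.

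The let-7 5p arms, the tumor-suppressing family that represses Ras and Lin28 transcripts, all had negative changes, with 4 of 10 called lower and none higher (median -0.81). let-7f-5p, the most abundant miRNA called, had 211150 and 236890 normalized counts at 0 h, 319347 and 215977 at 2 h, and 76840 and 92872 at 24 h (log2 -1.40, SE 0.17, adjusted p = 1.8e-05). let-7a-5p went from 54338 and 67386 to 18466 and 22149 (log2 -1.58, SE 0.16, adjusted p = 4e-06). In contrast, let-7i-5p had 291751 and 317765 at 0 h and 262285 and 291944 at 24 h, and these ranges overlapped (log2 -0.14, SE 0.13, adjusted p = 0.39). The members differ from each other by few bases outside the seed, so some reads may have been assigned to the wrong one. When scaled without miR-21a-5p the median was -0.35 and 1 member stayed called. Of the 10 measured let-7 3p arms none was called by limma or limma-voom, and their median was 0.55. By limma 4 of them were at an unadjusted p under 0.05, where 54.3% of all miRNAs were. When scaled without miR-21a-5p 5 were called higher, against 83 of all 350 miRNAs. let-7c-2-3p, for example, had 693 and 724 normalized counts at 0 h and 942 and 1264 at 24 h (log2 0.62, SE 0.19, adjusted p = 0.015).

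The miR-17-92 cluster and its paralogs, miRNAs that promote proliferation, had negative changes for 15 of 15 measured members, 5 of them called (median -0.69). miR-20a-5p went from 21186 and 32140 to 10984 and 10311 normalized counts (log2 -1.29, SE 0.19, adjusted p = 0.0001). miR-17-5p fell from 9768 and 13351 to 5433 and 4825 (log2 -1.16, SE 0.20, adjusted p = 0.00031). For each the 2 h libraries overlapped those at 0 h. With the scaling that leaves out miR-21a-5p, 1 member stayed called and the median was -0.23. In the miR-15/16 seed family the members did not share a direction. miR-195a-5p fell from 117 and 135 to 36.9 and 49.8 (log2 -1.53, SE 0.25, adjusted p = 0.00023), whereas miR-322-5p, with the same seed, rose, and the abundant member miR-16-5p had 1241 and 1294 at 0 h and 1021 and 803 at 24 h (adjusted p = 0.044).

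miRNAs named in earlier surveys as induced by hypoxia did not move as a group. Of 14 measured, miR-210-3p was called higher, miR-103-3p lower and 12 were not called, with a median of -0.01. miR-21a-5p itself had 2359320 and 1869550 normalized counts at 0 h and 2791390 and 3009180 at 24 h (log2 0.46, SE 0.12, adjusted p = 0.0047), a difference below 2-fold. In the miR-30 family 1 of 5 was called, miR-30d-5p, which fell from 186450 and 192031 to 83599 and 103126, a change of 2.04-fold just inside the limit. miR-30a-5p, with 193892 and 229206 at 0 h and 102486 and 108861 at 24 h, was just outside it.

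Markers of the cell type gave a mixed picture. miR-126a-3p, the defining miRNA of endothelial cells, was measured at 397 and 332 normalized counts in the nucleus at 0 h and 612 and 766 at 24 h (log2 0.91, SE 0.22, adjusted p = 0.0035), below the 2-fold limit. Over the 15 measured endothelial and vascular miRNAs none was called higher by limma and 2 were called lower, miR-31-5p and miR-146a-5p. Of all miRNAs 7.71% were called higher and 13.1% lower. Within the list 6 changes were positive and 9 negative, and the median of -0.22 turned to 0.24 when scaled without miR-21a-5p. Epithelial miRNAs were also present, and 5 of the 7 measured were called lower. When scaled without miR-21a-5p 2 were called lower and 1 higher, against 19 and 83 of all 350 miRNAs. miR-200c-3p, which maintains the epithelial state, fell from 91.0 and 64.7 to 19.0 and 31.1, and miR-203-3p, a keratinocyte miRNA, from 81.3 and 103 to 23.5 and 18.7. miR-96-5p, with a mean normalized count of 1549, had the only positive change of the 7 (log2 0.79) and was not called. Summed over the 7, the libraries held 45331 and 62167 normalized counts at 0 h, 35850 and 37850 at 2 h, and 26373 and 26881 at 24 h. Most of it was miR-183-5p and miR-182-5p. No measured marker could be at 0, because the authors kept only miRNAs with at least 10 reads. Of 7 miRNAs restricted to other tissues none was called by limma or limma-voom, with 3 at an unadjusted p under 0.05, against 54.3% of all miRNAs. The arms taken as markers of smooth muscle and fibroblasts moved in both directions, and none of these arms was called. Their log2 changes were -0.27 for miR-143-3p, 0.69 for miR-145a-5p, 0.77 for miR-199a-5p and -0.82 for miR-214-3p. Among the other arms of these hairpins, miR-145a-3p was called lower (-1.22) and miR-214-5p higher (1.02), while miR-143-5p and miR-199a-3p were not called. miR-199b-5p was called higher (1.27). miR-143-3p had a mean of 422231 normalized counts, against 540 for miR-126a-3p. The part of other cell types in these changes was not tested.

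Changes in the nucleus were compared with those in the cytoplasm. The interaction of fraction and time was called for 162 of 350 miRNAs at an adjusted p under 0.05 (46.3%, limma over 12 libraries) and for 54 of the 73 called nuclear miRNAs, whose nuclear change, on which they were chosen, is a term of that interaction. Over all miRNAs, 88 had a more positive change in the nucleus and 74 a more negative one, a split that became 32 and 105 on total count scaling and 27 and 103 on miR-186-5p scaling. Without the second 0 h nuclear library 97 were called, without the second 24 h nuclear library 106 and without the first 24 h cytoplasmic library 99. Of the 73, 11 were also called in the cytoplasm, 8 in the same direction and 3 in the opposite one. Of all 350 miRNAs, 48 were called in the cytoplasm.

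miR-210-3p rose in both fractions. Its cytoplasmic counts were 1284 and 1206 at 0 h and 6154 and 6195 at 24 h (log2 2.31), and the difference between fractions was 0.53 on the log2 scale (adjusted p = 0.056). miR-31-5p had 5453 and 5575 cytoplasmic counts at 0 h and 5505 and 6970 at 24 h, a change of 0.17, and the fractions differed by -3.18 (adjusted p = 1.1e-07). let-7a-5p, with 7460 and 9156 at 0 h and 17285 and 15907 at 24 h, rose in the cytoplasm while it fell in the nucleus. The other 2 called in opposite directions were miR-494-3p, which rose by 1.02 on the log2 scale in the cytoplasm, and miR-382-3p, which rose by 1.11. The let-7 arms had median changes of opposite sign in the 2 fractions, as the 5p arms had a median change of -0.81 in the nucleus and 0.88 in the cytoplasm, and the 3p arms 0.55 and -0.92. miR-203-3p and miR-193a-5p fell in both fractions, by 2.07 and 1.94 on the log2 scale in the nucleus and by 1.39 and 1.46 in the cytoplasm.

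**Figure D3:**
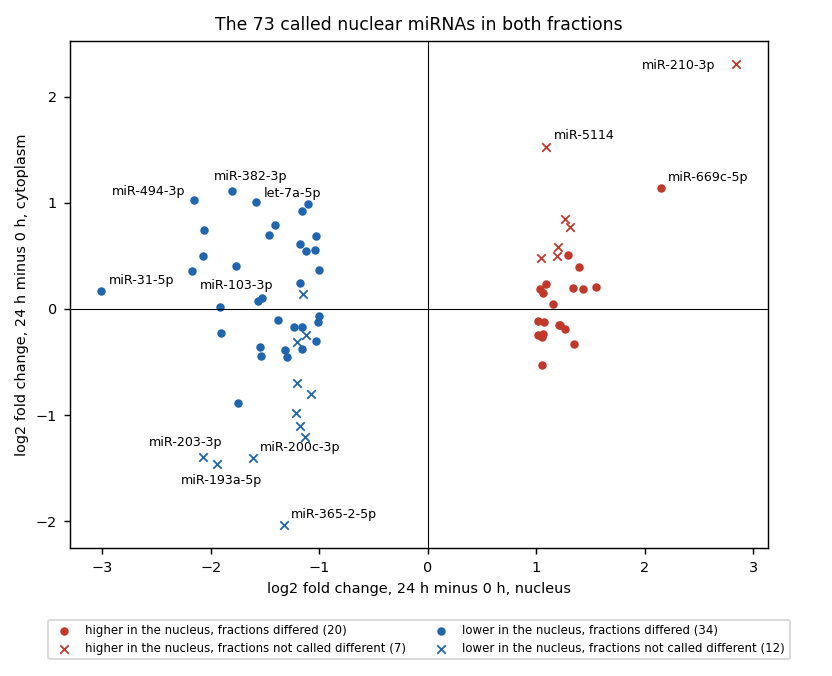
Each point is 1 of the 73 called nuclear miRNAs, with its log2 fold change from 0 h to 24 h in the nucleus (x axis) and in the cytoplasm (y axis). Filled circles (54) differed between fractions and crosses did not pass that test, and miR-31-5p, with -3.01 in the nucleus and 0.17 in the cytoplasm, is the point farthest to the left.

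The called miRNAs also differed in how they were divided between the fractions at the start, with normalized counts that put the fractions on a common scale through the size factors. Those called lower had a median nucleus to cytoplasm ratio of 1.32 on the log2 scale at 0 h, above 0 for 40 of 46, and of -0.12 at 24 h, above 0 for 20. Those called higher had -0.87 at 0 h, above 0 for 7 of 27, and 0.47 at 24 h. The 277 miRNAs not called had -0.06 and 0.12. These ratios contain the 0 h nuclear libraries that chose the called miRNAs, so they are a description. miR-31-5p went from 3.04 to -0.13, and its nuclear counts at 24 h, 6012 and 5307, lay within or just below the range of its cytoplasmic counts. The ratio of miR-3535 was similar at both times, and those of miR-1291 and miR-27a-5p moved toward 0. miR-3535, which overlaps a snoRNA gene, had a ratio of 5.01 at 0 h and 5.05 at 24 h, miR-1291, which overlaps Snora34, 5.75 and 4.46, and the cytoplasmic miR-27a-5p -6.25 and -4.72. The part of fraction purity in the nuclear changes was not tested.

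The arms of single hairpins often moved apart. For 84 hairpins with both arms measured, the ratio of the 5p to the 3p arm within a library does not depend on scaling. It was called changed for 29 at an adjusted p under 0.05 (34.5%, limma), 15 toward the 5p arm and 14 toward the 3p arm. This fit shared its spread across hairpins, so these p-values do not measure how far the libraries of each single hairpin varied. Without the second 24 h library 15 were called. The largest change was that of miR-31, for which log2(5p/3p) was 8.75 and 9.44 at 0 h and 5.03 in both 24 h libraries (change -4.07, SE 0.33, adjusted p = 1.4e-25 with a spread shared across hairpins). Its 3p arm rose from 106 and 63.2 to 182 and 162 normalized counts while the 5p arm fell, but the rise of the 3p arm lost its call without the second 0 h library or either 24 h library, with a pseudocount of 10 and when scaled to miR-186-5p. The other hairpin with both arms called in opposite directions was miR-195a, whose log2(5p/3p) went from 1.48 and 2.56 to -0.82 and -0.51. The rise of miR-195a-3p lost its call in the same 5 fits and also with the replicate block (log2 1.16, adjusted p = 0.016 against 0.0078 without it, limma), and the fall of miR-195a-5p without the first 24 h library. The 3p arm had more counts than the 5p arm at 24 h.

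In other hairpins a single arm was called. miR-25-5p, the rarer arm, fell from 116 and 100 to 36.9 and 26.5, while miR-25-3p had 11252 and 10738 at 0 h and 11265 and 10318 at 24 h. miR-140-3p, from the Wwp2 locus and abundant in cartilage, fell from 67393 and 89252 to 33669 and 32182, while miR-140-5p had 5284 and 4489 at 0 h and 6934 and 6143 at 24 h (adjusted p = 0.059). miR-450b changed most toward its 5p arm, with log2(5p/3p) of 1.32 and 0.39 at 0 h and 2.78 and 2.92 at 24 h. miR-145a, a smooth muscle miRNA, moved the same way, from -0.84 and -1.75 to 0.81 and 0.41, as miR-145a-3p fell from 3674 and 4219 to 1603 and 1789.

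**Figure D4:**
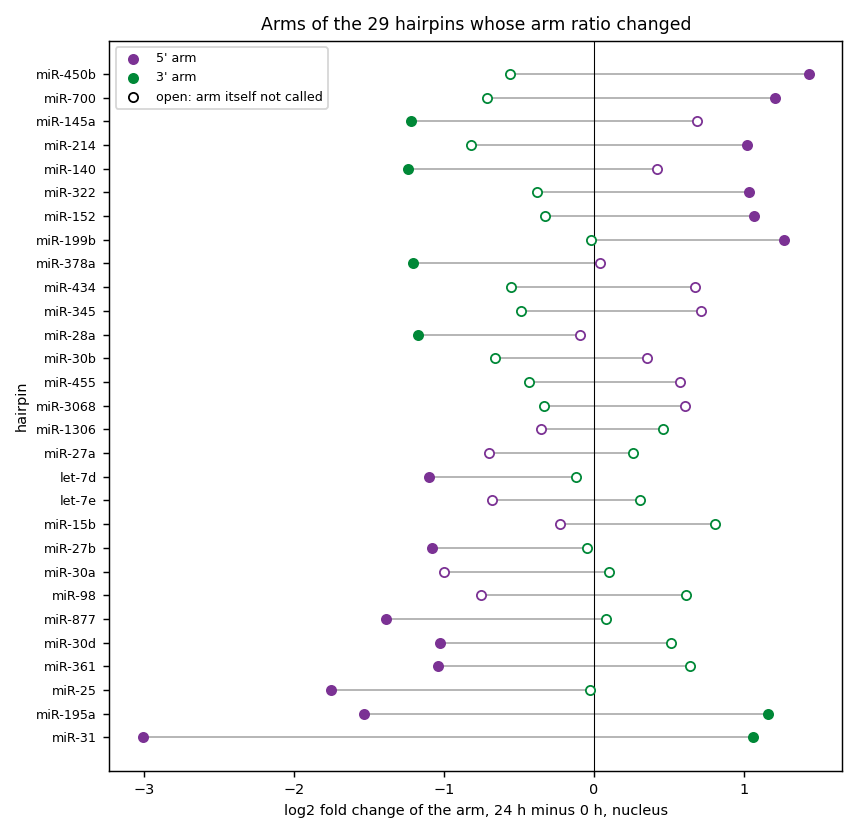
Each row is 1 of the 29 hairpins whose ratio of arms changed, with the log2 fold change of the 5p arm (purple) and of the 3p arm (green) from 0 h to 24 h in the nucleus. Filled symbols are arms called on their own, and miR-31 at the bottom has the widest gap, from -3.01 for the 5p arm to 1.06 for the 3p arm.

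The miRNAs called lower differed in purine (A or G) content from those not called. This property was looked at after the calls were known and is therefore given without a test. The 39 sequences called lower had a median purine content of 59.1%, with 33 above 50%. The 243 not called had a median of 45.8%, with 89 above 50% (36.6%), and the 19 called higher had 45.5%, with 6 above 50%. The 8 called rises without a sequence, left out here, are the 7 of the Sfmbt2 cluster and miR-199b-5p. Of the 46 called falls only the 39 with a sequence were used, so miR-185-5p, for example, was left out too. miR-31-5p, with 63.6% purine, and miR-31-3p, with 39.1%, are an example from a single hairpin, as are miR-195a-5p with 61.9% and miR-195a-3p with 36.4%. Members of a family share most of their bases and are not independent. Among the 45 miRNAs with over 60% purine 18 were called lower and 3 higher, and among the 66 with at most 40% 1 was called lower and 5 higher. The median changes of these groups were -0.76 and 0.28 in the nucleus and -0.08 and -0.23 in the cytoplasm. Across 301 miRNAs, which share their libraries and size factors, Pearson's r of purine content and the nuclear change was -0.36, and it was 0.11 for the cytoplasmic change. GC content had an r of 0.11 with the nuclear change. Exceptions were miR-382-3p, which fell with 36.4% purine, and miR-210-3p, which rose with 54.5%.

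**Figure D5:**
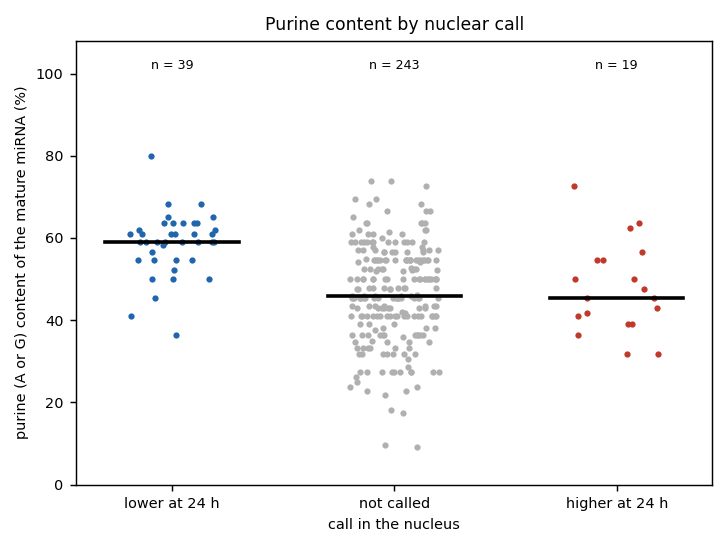
Each point is 1 of 301 miRNAs with a known mature sequence, with its purine content in percent on the y axis, grouped by its call in the nucleus and spread sideways to separate points. Bars are medians, 59.1% for the miRNAs called lower, 45.8% for those not called and 45.5% for those called higher.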

How the data were processed

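Per the labels, the authors used bcl2fastq, Trimmomatic and Bowtie2 2.1.0, and they kept miRNAs with at least 10 reads. The deposited values are a signal, the normalized counts for which the authors divided the reads of each library by a DESeq2 size factor. The authors' columns of fold changes and p-values were not used, because their nuclear headings do not match the libraries. The reads recovered for the 350 miRNAs numbered 3379276 to 4375616 per nuclear library, which limits the precision for rare miRNAs. Log2(normalized count + 1) of the 6 nuclear libraries was fitted with limma 3.58.1 (R 4.3.3, variance trend), tested on simulated data first, and adjusted by Benjamini-Hochberg over 350 miRNAs. The 12 largest called rises and 20 largest called falls were named, with their other arms, up to 4 members of each of the lists, miRNAs the study names, the 5 most abundant miRNAs and the 5 largest changes in arm ratio in each direction. Members and lists were chosen with earlier results of these data known. Alternatives changed the pseudocount, a low-count filter, scaling, threshold, model and libraries, and limma-voom was run on recovered reads. Figures used matplotlib in Python.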

Additional observations from a re-analysis of the deposited data

Results flagged for a closer look

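By the interaction test, the 24 h response differed between nucleus and cytoplasm for 39 members of a chosen set. The set held the largest rises and falls, their other arms, the most abundant miRNAs, let-7 arms with the largest nuclear changes and miR-126a-3p. Over all 350 miRNAs the share called was 46.3%. The largest rises and falls were chosen on their nuclear change, a term of that interaction, so the count of 39 is a description. Values are nuclear minus cytoplasmic changes on the log2 scale (limma, adjusted p under 0.05).

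The nuclear response was the more negative one for miR-31-5p and miR-494-3p, each at -3.18, and for miR-382-3p at -2.92 and miR-501-5p at -2.81. The let-7 5p arms gave -2.59 for let-7a-5p, -2.20 for let-7f-5p, -2.09 for let-7d-5p and -2.08 for let-7c-5p. Abundant miRNAs among them were miR-185-5p at -2.57, miR-103-3p at -2.53, miR-191-5p at -2.17, miR-1839-5p at -1.94, miR-542-3p at -1.68, miR-501-3p at -1.64 and miR-30a-5p at -0.79. Rarer ones were miR-3057-5p at -2.17, miR-382-5p at -1.79, miR-195a-5p at -1.64, miR-450b-3p at -1.57, miR-146a-5p at -1.19, miR-378b at -1.09 and miR-25-5p at -0.87. miR-199b-3p gave -0.59, with changes of -0.02 in the nucleus and 0.57 in the cytoplasm.

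Those with a more positive response in the nucleus included let-7 3p arms, with 2.32 for let-7f-1-3p, 1.82 for let-7c-2-3p and 1.74 for let-7f-2-3p. From the Sfmbt2 cluster came miR-467b-5p at 1.69, miR-467a-5p at 1.45, miR-669l-5p at 1.14, miR-669c-5p at 1.01 and miR-669o-5p at 1.00. miR-126a-3p gave 1.43 and miR-21a-5p 1.13, neither of them called in the nucleus. The rest were miR-331-3p at 1.37, miR-193b-3p at 1.35, miR-31-3p at 1.29, miR-450b-5p at 1.24, miR-195a-3p at 1.11 and miR-370-3p at 0.79. Of these 16 no direction turned under another scaling, but 7 stayed called on total count scaling, 7 on miR-186-5p scaling and 15 with size factors set within each fraction. The let-7 3p arms, miR-126a-3p, miR-467a-5p and miR-467b-5p stayed called under all of these, and the 23 more negative ones did as well.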

How the results depend on the processing

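For the named miRNAs, no called direction turned under any alternative that was run. With no fold limit 114 miRNAs were called in the nucleus, 45 of them higher. Leaving out a library gave 18 to 86 calls, 2 to 35 of them higher and 16 to 51 lower. Scaled without miR-21a-5p 83 were higher and 19 lower, and scaled to miR-186-5p 12 were higher. With the replicate block 69 were called, and the correlations of same-numbered nuclear libraries, 0.01, 0.00045 and -0.18, did not pair them. Among the named miRNAs the block ended the call of miR-195a-3p and no other. Interaction calls ranged from 97 to 166 and arm ratio calls from 15 to 28 without a library. Of the largest changes, 10 of 20 falls and 1 of 12 rises, miR-210-3p, kept their call under every alternative they entered, and 10 rises and 9 falls lost it only in fits without a library. Depth limits miRNAs under 100 normalized counts, and with a mean of at least 100 53 of 238 were called.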
